A study of Mus musculus with 15 samples.

Results

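Nrf2, the product of Nfe2l2, is the transcription factor that switches on the main antioxidant and detoxification program of mammalian cells. Keap1 binds it and delivers it to a Cul3 ubiquitin ligase for destruction; when oxidants or electrophiles modify Keap1, Nrf2 escapes, pairs with a small Maf protein and binds the antioxidant response element, which Bach1 otherwise occupies as a repressor. In brain cultures the program is known to be more inducible in glia than in neurons, and glia are held to supply neurons with glutathione precursors. The 10 target genes described here were Hmox1, Nqo1, Gclc, Gclm, Srxn1, Txnrd1, Slc7a11, Gsr, Osgin1 and Prdx1, chosen by symbol from a counts table of 24498 genes. All 10 were in the table and all 10 passed the filter on low counts, which left 15075 genes for testing.

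The libraries came from primary mouse hippocampal neurons, plated by a neuronal core facility, kept in neurobasal medium with B27 and differentiated for 7 days. The cells then received 5 mM acetate or medium alone as vehicle for 24 hours, each with either 20 µM of an inhibitor of ACSS2, the enzyme that turns acetate into acetyl-CoA, or DMSO. The study used acetate to mimic heavy drinking, since alcohol is broken down to acetate. There were 4 libraries each of DMSO vehicle, DMSO acetate and inhibitor acetate, and 3 of inhibitor vehicle. The labels give no sex, age or strain and do not say which libraries came from separate cultures, and a p-value here speaks only of the spread among libraries, which may be technical.

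Gene counts ran from 19688231 to 39234799 per library (median 22722121), and 1 count was worth 0.028 to 0.054 CPM, the depth-scaled count used here for levels. The libraries were bulk RNA. All 14 neuronal markers were detected in every library, but transcripts of other cells were abundant. The summed level of 13 astrocyte markers, not scaled by length, exceeded that of the neuronal markers in 5 vehicle libraries, with 12302 against 5484 CPM in DMSO vehicle 2 and 13431 against 6210 CPM in inhibitor vehicle 3. In the other 10 libraries the neuronal sum was the higher. Most of the astrocyte sum was 1 gene, Gfap, with 9772 CPM in DMSO vehicle 2 and 10755 CPM in inhibitor vehicle 3. Markers of other cells were present as well, and 2 vehicle libraries stood apart from the rest of their groups in them. A non-neuronal score, the mean log2 CPM over astrocyte, oligodendrocyte, microglia, vessel and meningeal marker lists, was 3.26 in DMSO vehicle 1 against 4.42 to 4.63 in the other DMSO vehicle libraries. It was 1.86 in inhibitor vehicle 2 against 4.07 and 4.41 in the other inhibitor vehicle libraries, and 1.80 to 2.15 in the 8 acetate libraries. Results that rest on those 2 vehicle libraries are given with and without them.

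The regulatory sequence through which Nrf2 acts was looked for in RefSeq promoter windows of build GRCm38.p6, each from 250 bases before a gene's start to 50 after it. The window table held 9 promoters of 7 of the 10 genes; Hmox1, Gclc and Gsr had no entry. The core of the antioxidant response element was searched as TGACNNNGC on both strands, and the related AP-1 site as TGANTCA, which reads alike on both. The first was in 12.4% and the second in 7.81% of all 32851 promoter windows. A match is a description of letters, not a measured binding site. The element core was found in Gclm, Srxn1, Txnrd1 and Prdx1, in Srxn1 only after the start and in Txnrd1 only in the second of its 3 promoters. The upstream matches of Gclm, Txnrd1 and Prdx1 are shown because they are the letters that Nrf2 is known to read. AP-1 matches of Srxn1 and Osgin1 are shown because these genes had no match to TGACNNNGC upstream. Other forms of the element were not searched. Each sequence is given 5′ to 3′ on the gene's own plus strand, with the match in capitals; the element cores shown lie on the opposite strand.
Gclm, chr3:122245393-122245461: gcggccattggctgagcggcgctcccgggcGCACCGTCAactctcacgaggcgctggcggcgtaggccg
Txnrd1, chr10:82859084-82859152: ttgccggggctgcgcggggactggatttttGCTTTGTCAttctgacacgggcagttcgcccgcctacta
Prdx1, chr4:116685436-116685504: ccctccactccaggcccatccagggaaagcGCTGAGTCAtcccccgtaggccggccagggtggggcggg
Srxn1, AP-1, chr2:152105449-152105515: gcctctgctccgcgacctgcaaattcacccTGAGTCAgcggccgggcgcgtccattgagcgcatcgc
Osgin1, AP-1, chr8:119437020-119437086: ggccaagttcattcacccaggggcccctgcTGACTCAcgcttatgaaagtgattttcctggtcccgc
The element cores began 134, 92 and 133 bases upstream of the starts of Gclm, Txnrd1 and Prdx1, and the AP-1 matches 45 and 97 bases upstream in Srxn1 and Osgin1. Srxn1 had another AP-1 match 102 bases upstream and Prdx1 a separate one 237 bases upstream, neither of them shown. In Prdx1 the element core overlapped a further AP-1 match, which shares its TGAGTCA letters. Nqo1 and Slc7a11 had neither motif in this window, which says only that these letters are not there.

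With acetate and no inhibitor, transcripts of all 10 genes fell. Nqo1 and Slc7a11 fell most, to 13.6% and 14.9% of their vehicle level by the fitted fold, and Hmox1 fell to 25.4%. The glutathione, thioredoxin and sulfiredoxin genes fell less, to between 41.7% (Gclc) and 70.9% (Gsr). In the quasi-likelihood test of edgeR, with p adjusted over all genes after Benjamini and Hochberg (BH), 10 of 10 fell and 0 rose, where 27.5% of all tested genes fell and 23.7% rose. In 9 of the 10, all but Osgin1, every acetate library lay below every vehicle library, a pattern seen in 23.3% of all genes. The median log2 fold of the 10 was -1.12, against -0.03 over all tested genes. In bulk RNA, fewer cells of a type and less RNA per cell cannot be told apart. Leaving out any 1 library kept all 10 calls, and so did leaving out DMSO vehicle 1 together with inhibitor vehicle 2, where 31.4% of all genes fell. Markers of other cells moved with acetate too: all 14 tested microglia markers fell. With the non-neuronal score in the model 3 of 10 genes fell, where 5.81% of all genes did, and Nqo1 and Slc7a11 turned positive, at 0.42 and 0.25, without passing.

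Hmox1 (ENSMUSG00000005413.8, chr8:75093621-75100589) encodes the inducible heme oxygenase, which breaks heme into biliverdin, iron and carbon monoxide. In DMSO vehicle libraries 1 to 4 it stood at 107, 243, 221 and 233 CPM. In DMSO acetate libraries 1 to 4 it stood at 49.0, 50.6, 52.8 and 52.2 CPM. The acetate values lay within 4 CPM of each other and below the lowest vehicle library, which was DMSO vehicle 1. Hmox1 fell by 1.98 on the log2 scale (SE 0.27, BH-adjusted p = 7.2e-05 by edgeR), and without the 2 vehicle libraries that stood apart it fell by 2.18.

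Nqo1 (ENSMUSG00000003849.8, chr8:107388225-107403206, minus strand) encodes a quinone reductase that keeps quinones from cycling with oxygen. It stood at 4.03, 20.6, 17.9 and 19.2 CPM in DMSO vehicle libraries 1 to 4. With acetate it stood at 2.47, 2.14, 1.45 and 2.27 CPM. DMSO vehicle 1 was far closer to the acetate libraries than to the other vehicle libraries, though still above all of them. Nqo1 fell by 2.88 on the log2 scale (SE 0.57, BH-adjusted p = 0.000897 by edgeR). Against the mean of the other DMSO vehicle libraries, without DMSO vehicle 1, the mean of the acetate libraries differed by -3.18 log2 CPM.

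Slc7a11 (ENSMUSG00000027737.10, chr3:49892526-50443614, minus strand) encodes the cystine-glutamate antiporter subunit xCT, which brings in the cystine needed for glutathione. Its pattern was that of Nqo1. It stood at 5.53, 28.4, 20.4 and 20.0 CPM in DMSO vehicle libraries 1 to 4. With acetate it stood at 2.996, 2.94, 2.48 and 2.59 CPM. The groups did not overlap, and again DMSO vehicle 1 was the low vehicle library. Slc7a11 fell by 2.75 on the log2 scale (SE 0.53, BH-adjusted p = 0.000783 by edgeR). Against the mean of the other DMSO vehicle libraries, without DMSO vehicle 1, the mean of the acetate libraries differed by -3.01 log2 CPM.

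Of the glutathione genes, Gclc (ENSMUSG00000032350.9, chr9:77754535-77794485) encodes the catalytic subunit of glutamate-cysteine ligase, the rate-limiting enzyme of glutathione synthesis. It stood at 36.7, 43.1, 32.8 and 33.5 CPM in DMSO vehicle and at 16.1, 14.6, 15.1 and 14.98 CPM in DMSO acetate libraries 1 to 4. DMSO vehicle 1 lay within the range of the other vehicle libraries, unlike for Nqo1 and Slc7a11. Gclc fell by 1.26 on the log2 scale (SE 0.13, BH-adjusted p = 1.04e-05 by edgeR), the smallest p among the 10 genes. Gclm (ENSMUSG00000028124.15, chr3:122245557-122270732), the modifier subunit of the same ligase, stood at 17.1, 25.5, 17.6 and 20.2 CPM with vehicle and 10.8, 10.9, 10.8 and 11.7 CPM with acetate. Its groups did not overlap, and it fell by 0.87 (SE 0.17, BH-adjusted p = 0.000694 by edgeR). Exons of Gclm overlap those of Gm17494 on the opposite strand by 296 bases and the pseudogene Gm6061 on the same strand by 244, so part of its count is uncertain. Gsr (ENSMUSG00000031584.16, chr8:33652523-33698163), the glutathione reductase, stood at 39.2, 42.8, 38.9 and 34.3 CPM with vehicle and 28.1, 26.8, 29.2 and 26.0 CPM with acetate. The groups stayed apart, but Gsr showed the smallest fall of the 10, by 0.50 (SE 0.10, BH-adjusted p = 0.000809 by edgeR).

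Among the thioredoxin and peroxiredoxin genes, Txnrd1 (ENSMUSG00000020250.10, chr10:82833951-82897712), the cytosolic thioredoxin reductase, stood at 139.8, 135, 124 and 119.7 CPM in DMSO vehicle libraries 1 to 4. With acetate it stood at 79.3, 74.7, 73.9 and 78.9 CPM. DMSO vehicle 1 was the highest vehicle library for this gene, and Txnrd1 fell by 0.76 on the log2 scale (SE 0.10, BH-adjusted p = 6.24e-05 by edgeR). Srxn1 (ENSMUSG00000032802.8, chr2:152105516-152111376), the sulfiredoxin that repairs overoxidized peroxiredoxins, stood at 89.0, 171, 166 and 148 CPM with vehicle and 59.8, 61.0, 64.01 and 58.6 CPM with acetate. It fell by 1.24 (SE 0.21, BH-adjusted p = 0.000274 by edgeR), with DMSO vehicle 1 again the lowest vehicle library. Prdx1 (ENSMUSG00000028691.12, chr4:116685544-116700822), a peroxiredoxin that reduces hydrogen peroxide, stood at 303, 423, 393 and 407 CPM with vehicle and 206, 232, 245 and 254 CPM with acetate. It fell by 0.70 (SE 0.12, BH-adjusted p = 0.000381 by edgeR) with no overlap of the groups.

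Osgin1 (ENSMUSG00000074063.10, chr8:119434124-119446256), an oxidative stress-induced growth inhibitor, was the 1 gene whose groups overlapped. It stood at 4.51, 8.41, 8.53 and 9.91 CPM with vehicle and 3.88, 4.596, 3.65 and 3.41 CPM with acetate. DMSO vehicle 1 lay just under DMSO acetate 2. Osgin1 fell by 1.01 (SE 0.29, BH-adjusted p = 0.0094 by edgeR), the largest p of the 10, and without the 2 vehicle libraries that stood apart it fell by 1.19.

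**Figure D1:**
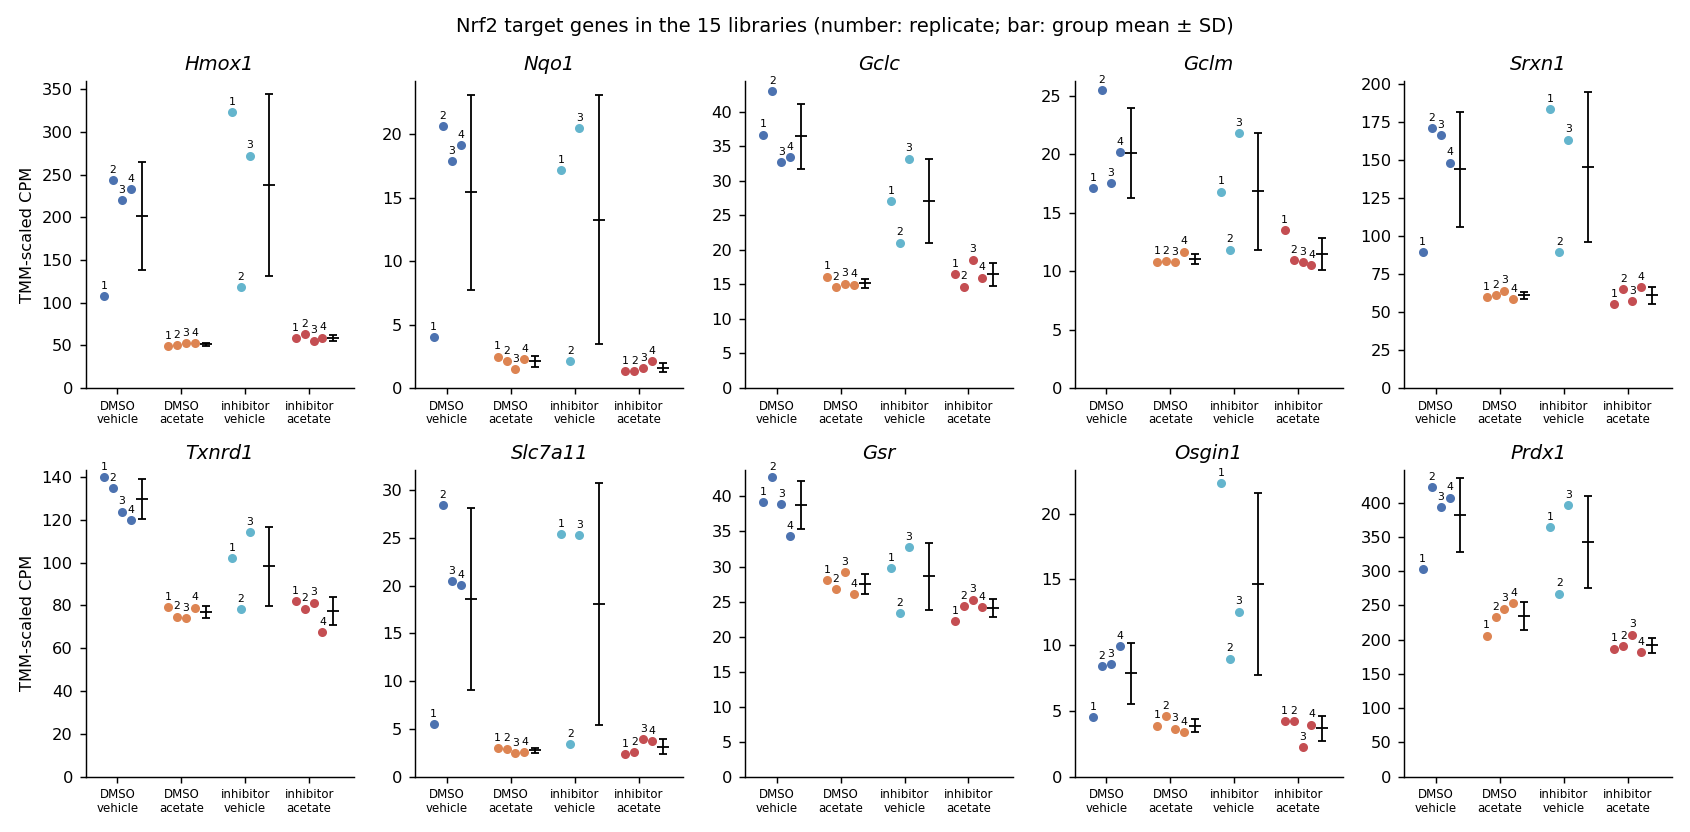
TMM-scaled CPM of each of the 10 genes (vertical axis, linear, from 0) in the 15 libraries by group (horizontal axis); each number is a library's replicate number, and bars give the group mean ± SD. Acetate libraries cluster tightly, as with Hmox1 at 49.0 to 63.3 CPM, while DMSO vehicle 1 and inhibitor vehicle 2 sit low for Hmox1, Nqo1, Slc7a11 and Srxn1.

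Levels of different genes can be compared only per length. Over the union of annotated exons, mean levels in DMSO vehicle libraries were highest for Prdx1 with 125 CPM per kilobase and Hmox1 with 115, followed by Srxn1 with 50.9. Txnrd1 (18.3), Gsr (14.1), Nqo1 (9.94) and Gclc (9.69 CPM per kilobase) were intermediate. Gclm (3.19), Osgin1 (2.93) and Slc7a11 (1.34) were lowest. With acetate Prdx1 remained highest at 77.0 CPM per kilobase in DMSO libraries, with Hmox1 at 29.2 and Slc7a11 at 0.198.

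With the inhibitor present, acetate again went with lower levels of the set. In the same edgeR test 9 of 10 fell and 0 rose, where 20.6% of all tested genes fell and 14.5% rose. The median log2 fold of the 10 was -1.05, against -0.03 over all genes. Every acetate library lay below every vehicle library in 6 of the 10 (Hmox1, Nqo1, Gclc, Srxn1, Osgin1 and Prdx1), as it did in 16.4% of all genes. Without DMSO vehicle 1 and inhibitor vehicle 2, 10 of 10 fell, where 26.6% of all genes fell.

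Hmox1 stood at 324, 118 and 272 CPM in inhibitor vehicle libraries 1 to 3 and at 58.0, 63.3, 55.4 and 58.9 CPM in inhibitor acetate libraries 1 to 4. It fell by 2.02 on the log2 scale (SE 0.28, BH-adjusted p = 0.000354 by edgeR), and inhibitor vehicle 2 was still 2.01 times the mean of the inhibitor acetate libraries. Osgin1 stood at 22.3, 8.98 and 12.6 CPM with vehicle and at 4.22, 4.22, 2.23 and 3.96 CPM with acetate. Here its groups were well apart, and it fell by 1.997 (SE 0.31, BH-adjusted p = 0.000611 by edgeR). Nqo1 stood at 17.2, 2.14 and 20.5 CPM with vehicle and at 1.35, 1.33, 1.58 and 2.11 CPM with acetate. Inhibitor vehicle 2 was barely above the highest acetate library, and Nqo1 fell by 3.06 (SE 0.61, BH-adjusted p = 0.00252 by edgeR). Slc7a11 stood at 25.4, 3.42 and 25.3 CPM with vehicle and at 2.39, 2.57, 3.89 and 3.69 CPM with acetate. Its groups overlapped through inhibitor vehicle 2 alone, and it fell by 2.53 (SE 0.55, BH-adjusted p = 0.00397 by edgeR). Against the mean of the inhibitor vehicle libraries without inhibitor vehicle 2, the inhibitor acetate mean differed by -3.52 log2 CPM for Nqo1 and -3.01 for Slc7a11.

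Srxn1 stood at 183, 89.4 and 163 CPM with vehicle and inhibitor, and at 54.8, 65.1, 57.1 and 66.1 CPM with acetate and inhibitor. It fell by 1.26 (SE 0.22, BH-adjusted p = 0.00115 by edgeR). Prdx1 stood at 364, 267 and 396 CPM with vehicle and at 187, 190.4, 207 and 182 CPM with acetate. Prdx1 fell by 0.84 (SE 0.13, BH-adjusted p = 0.000646 by edgeR).

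The glutathione genes and Txnrd1 showed their smaller changes here. Gclc stood at 27.1, 21.1 and 33.2 CPM with vehicle and at 16.5, 14.7, 18.6 and 16.0 CPM with acetate, a fall of the whole group. It fell by 0.72 (SE 0.13, BH-adjusted p = 0.00172 by edgeR). Gclm stood at 16.8, 11.8 and 21.8 CPM with vehicle and at 13.5, 10.97, 10.8 and 10.5 CPM with acetate. The groups overlapped, and it fell by 0.56 (SE 0.18, BH-adjusted p = 0.0254 by edgeR). Txnrd1 stood at 102, 78.3 and 114 CPM with vehicle and at 82.0, 78.5, 81.3 and 67.7 CPM with acetate. Inhibitor vehicle 2 lay among the acetate libraries, and Txnrd1 fell by 0.35 (SE 0.11, BH-adjusted p = 0.0229 by edgeR). Gsr stood at 29.7, 23.4 and 32.7 CPM with vehicle and at 22.2, 24.4, 25.3 and 24.2 CPM with acetate. It did not pass (log2 fold -0.25, SE 0.10, BH-adjusted p = 0.0732 by edgeR).

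The calls for the last 3 of these genes rested on single libraries. Without inhibitor vehicle 3 the log2 folds of Gclm, Txnrd1 and Gsr were -0.32, -0.22 and -0.14, and none passed (adjusted p = 0.192, 0.152 and 0.364 by edgeR). Without inhibitor vehicle 2, Gsr passed at -0.38 (adjusted p = 0.00476 by edgeR). Gclm also missed the threshold without inhibitor vehicle 1 (-0.55, adjusted p = 0.0719) and without inhibitor acetate 2, 3 or 4 (adjusted p = 0.0576, 0.0606 and 0.062 by edgeR). With the replicate block the log2 fold of Gclm was -0.55 (adjusted p = 0.0624 by edgeR), and with the compared groups only it was -0.57 (adjusted p = 0.0643 by edgeR). Txnrd1 missed it without inhibitor vehicle 1 (-0.31, adjusted p = 0.0879), without inhibitor acetate 4 (-0.29, adjusted p = 0.0658) and with the compared groups only (-0.36, adjusted p = 0.0763 by edgeR).

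**Figure D2:**
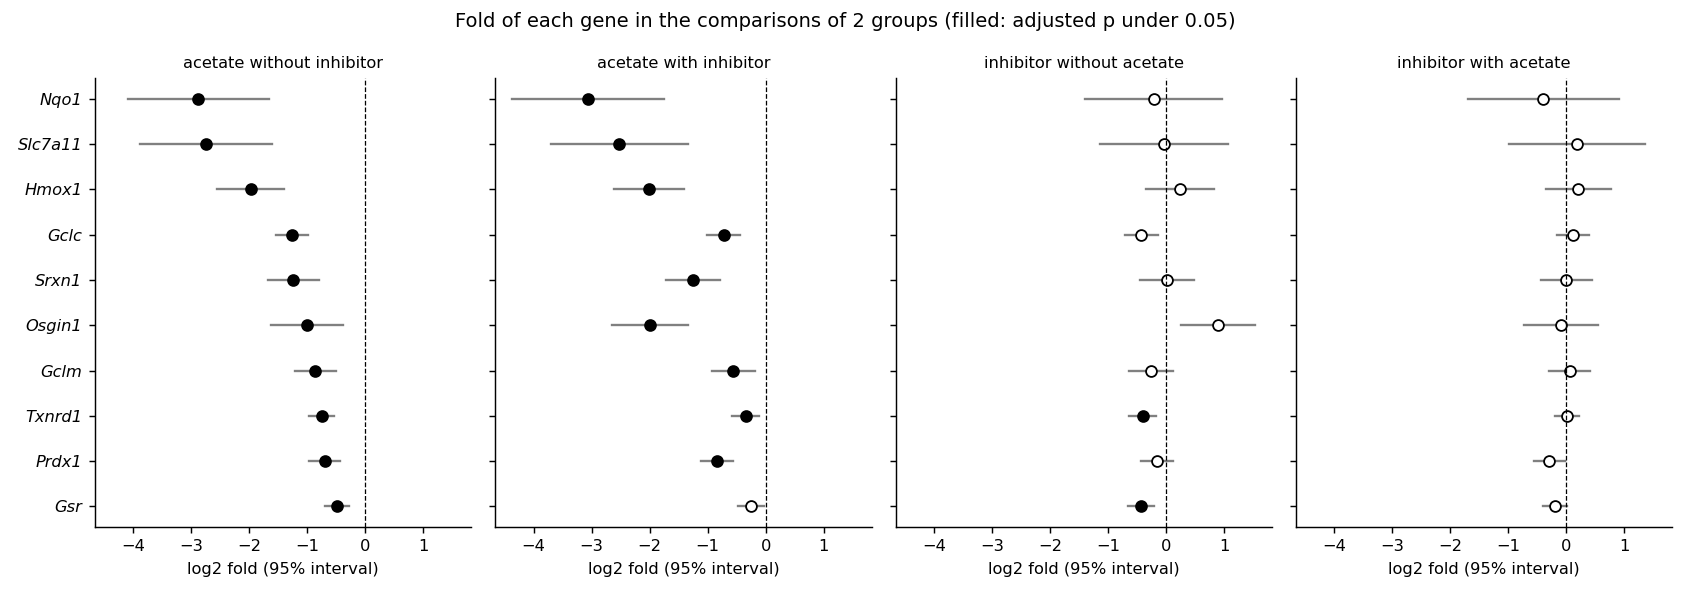
Fitted log2 fold of each gene (horizontal axis; points, with 95% confidence intervals as lines) in the 4 comparisons of 2 groups, with genes down the vertical axis; filled points passed an adjusted p of 0.05 by edgeR. All 10 genes lie below 0 in both acetate comparisons, whereas in the inhibitor comparisons only Txnrd1 and Gsr without acetate are filled.

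The test of the difference between both acetate responses, which asks whether the inhibitor altered the response to acetate, called 0 of 10 genes in either direction. Of all tested genes it called 0.00663% lower and 0.0133% higher, so it called almost nothing in the whole table. At unadjusted p under 0.05 it gave 1 gene lower and 2 higher, where 20.7% of all genes reached that level in either direction. DESeq2 called 0 of the 10, against 4.99% of all genes lower and 1.76% higher. Gclc had the smallest p, with the log2 fold under acetate less negative by 0.54 in the presence of the inhibitor (95% interval 0.14 to 0.93, BH-adjusted p = 0.119 by edgeR). Txnrd1 differed by 0.41 (interval 0.10 to 0.72, adjusted p = 0.135) and Osgin1 by -0.99 (interval -1.89 to -0.09, adjusted p = 0.198 by edgeR). For Hmox1 the difference was -0.04, with an interval from -0.86 to 0.77, and for Nqo1 it was -0.18, from -1.93 to 1.56, so sizeable differences in either direction lie within these intervals. Without inhibitor vehicle 3, Gclc (0.73, adjusted p = 0.03) and Txnrd1 (0.55, adjusted p = 0.0368 by edgeR) passed. In that setting 1.72% of all tested genes were called higher and 4.94% lower. The inhibitor vehicle group holds 3 libraries and 1 of them stood apart.

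The inhibitor by itself, in vehicle cultures, went with lower Txnrd1 and Gsr. Txnrd1 fell from 129.6 ± 9.35 CPM (SD, n = 4) to 98.3 ± 18.4 CPM (n = 3), by 0.40 on the log2 scale (SE 0.11, BH-adjusted p = 0.0467 by edgeR). Gsr fell from 38.8 ± 3.48 CPM (n = 4) to 28.6 ± 4.78 CPM (n = 3), by 0.44 (SE 0.11, BH-adjusted p = 0.0309 by edgeR). Both had every inhibitor library below every DMSO library, as 7.36% of all genes did. In all, 2 of 10 genes fell and 0 rose, where 1.99% of all tested genes fell and 3.47% rose. Both calls were lost when libraries were left out: without both vehicle libraries that stood apart the log2 folds were -0.22 for Txnrd1 and -0.31 for Gsr, and neither passed (adjusted p = 0.156 and 0.0784 by edgeR). Without inhibitor vehicle 2 alone they were -0.26 and -0.31 (adjusted p = 0.124 and 0.0857 by edgeR). Leaving out other single libraries also ended 1 or both calls, as the closing part gives.

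Osgin1 was the gene with the highest fold in this comparison. Its mean was 7.84 ± 2.32 CPM (n = 4) with DMSO and 14.6 ± 6.91 CPM (n = 3) with inhibitor, a log2 fold of 0.90 (SE 0.30) that did not pass (BH-adjusted p = 0.0812 by edgeR). DESeq2 called it higher (0.90, adjusted p = 0.0371), where 6.44% of all tested genes rose. The DMSO and inhibitor libraries overlapped, since inhibitor vehicle 2 (8.98 CPM) lay below DMSO vehicle 4 (9.91 CPM). Without the 2 vehicle libraries that stood apart edgeR called it higher too (0.96, adjusted p = 0.0161), where 2.73% of all genes rose. In that setting Osgin1 stood at 12.6 and 22.3 CPM with inhibitor and at 8.41 to 9.91 CPM with DMSO, without overlap. Hmox1 had a log2 fold of 0.24 (SE 0.28, adjusted p = 0.621 by edgeR). Without the 2 vehicle libraries that stood apart the fold of Hmox1 was 0.36 (adjusted p = 0.0206 by edgeR). Gclc stood at 27.1 ± 6.09 CPM with inhibitor against 36.5 ± 4.70 CPM without, a log2 fold of -0.43 (adjusted p = 0.0701 by edgeR, and 0.032 by DESeq2). Nqo1 (-0.21), Slc7a11 (-0.04), Gclm (-0.26), Srxn1 (0.02) and Prdx1 (-0.16) did not pass, and the intervals of Nqo1 and Slc7a11 ran from -1.39 to 0.96 and from -1.15 to 1.06.

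In acetate cultures the inhibitor gave 0 of 10 genes called lower or higher by edgeR, where 3.42% of all tested genes fell and 2.36% rose; at unadjusted p under 0.05 it gave 1 lower and 0 higher, where 22% of all genes reached that level. DESeq2 called 0 of the 10, against 5.84% of all genes lower and 3.92% higher. The largest difference relative to its error was that of Prdx1, with 234 ± 20.99 CPM (SD, n = 4) without and 192 ± 10.998 CPM (n = 4) with inhibitor, a log2 fold of -0.29 (95% interval -0.55 to -0.03, BH-adjusted p = 0.177 by edgeR). It passed without the 2 vehicle libraries that stood apart (-0.29, adjusted p = 0.0104 by edgeR). Neither of those libraries is in these acetate groups, and in that setting 10.9% of all tested genes fell and 6.95% rose. Hmox1 stood at 51.2 ± 1.71 CPM without and 58.9 ± 3.31 CPM with inhibitor. Its log2 fold of 0.20 did not pass (adjusted p = 0.717 by edgeR, and 0.0481 without the libraries that stood apart). Srxn1 was close to equal, with 60.8 ± 2.32 and 60.8 ± 5.65 CPM and an interval of the log2 fold from -0.44 to 0.43. In order of mean level, both acetate groups were below both vehicle groups for each of the 10 genes. No gene was called between the acetate groups by the main edgeR test. That test takes each gene's spread from all 15 libraries, including the vehicle libraries that stood apart, so a missing call does not show equal levels. With only the compared groups 1 gene fell and 1 rose, where 10.6% and 8.58% of all tested genes did.

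The 2 vehicle libraries that stood apart in their non-neuronal markers differed in these genes. DMSO vehicle 1 did not hold low levels of every gene. Inhibitor vehicle 2 was below the mean of the other inhibitor vehicle libraries for all 10 genes. Its differences from that mean ran from -0.41 (Gsr) to -3.08 (Nqo1) log2 CPM. In DMSO vehicle 1, Nqo1, Slc7a11 and Hmox1 differed from the mean of the other DMSO vehicle libraries by -2.23, -2.02 and -1.11 log2 CPM. Txnrd1, Gclc and Gsr were as high there as in the rest of the group, with differences of 0.15, 0.02 and 0.02 log2 CPM. Of the 10 genes 9, all but Osgin1, were higher in DMSO vehicle 1 than in any of the 8 acetate libraries, as were 30.4% of all tested genes. Gclc was 2.42 and Txnrd1 1.82 times its mean in the DMSO acetate libraries.

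Inhibitor vehicle 2 had a non-neuronal score within the range of the acetate libraries. In it 5 of the 10 genes were above all 8 acetate libraries, as were 22.2% of all tested genes. These were Osgin1 at 2.45 times its mean in inhibitor acetate libraries, Hmox1 at 2.01, Srxn1 at 1.47, Prdx1 at 1.39 and Gclc at 1.28 times. Nqo1 (2.14 CPM), Slc7a11 (3.42), Gclm (11.8), Txnrd1 (78.3) and Gsr (23.4 CPM) were not. This is 1 library, so these values have no replicate check.

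**Figure D3:**
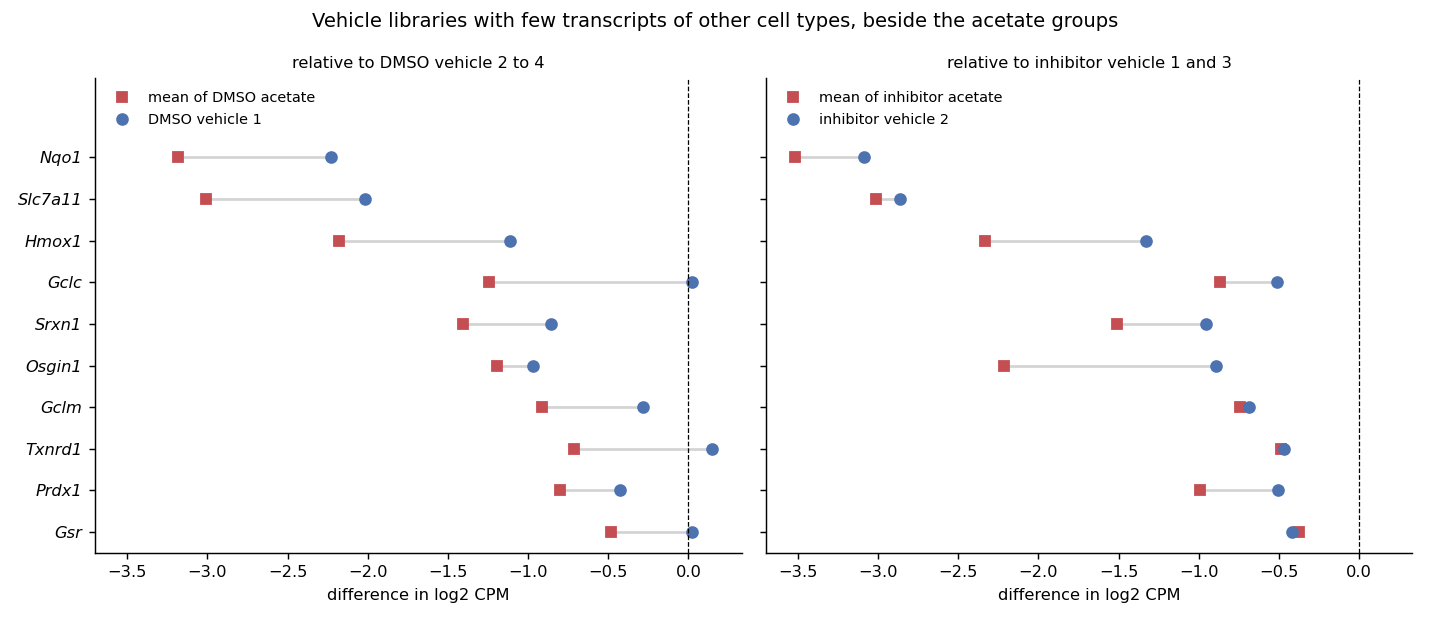
Difference in log2 CPM (horizontal axis) of each gene (vertical axis) from the mean of the vehicle libraries that did not stand apart, for DMSO vehicle 1 and the mean of the DMSO acetate libraries (left) and for inhibitor vehicle 2 and the mean of the inhibitor acetate libraries (right). On the left Txnrd1, Gclc and Gsr of DMSO vehicle 1 lie at 0.15, 0.02 and 0.02, far from their acetate means; on the right Slc7a11, Gclm, Txnrd1 and Gsr of inhibitor vehicle 2 lie close to theirs.

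Most markers of other cells also fell with acetate, though not all; Slc1a3, Acsbg1, Aldh1l1, Olig1 and Rgs5 are named because of their values. All 14 tested microglia markers of 15 listed fell in DMSO cultures, with a median log2 fold of -4.50, and Cx3cr1, the fractalkine receptor, fell by 6.10. The summed level of the microglia list was 174.8 to 789.9 CPM in DMSO vehicle and 54.6 to 78.4 CPM in DMSO acetate libraries. With inhibitor it was 42.7 to 663 CPM with vehicle and 47.2 to 93.5 CPM with acetate, and all 14 fell there too, with a median of -3.70. Single microglia markers were at 0 in 3 DMSO acetate libraries (P2ry12, Ptprc and Itgam), in inhibitor vehicle 2 and inhibitor acetate 1 (Fcrls), and in inhibitor acetate 3 (Cx3cr1). Of 13 astrocyte markers 9 fell without and 6 with inhibitor, among them Gja1, a gap junction protein, by 1.26 and 1.13. The astrocyte genes Slc1a3, Acsbg1 and Aldh1l1 did not pass without inhibitor, with folds of 0.07, 0.39 and -0.08 (adjusted p = 0.704, 0.191 and 0.634 by edgeR). The astrocyte sum was 4431 to 12302 CPM in DMSO vehicle against 3463 to 4293 CPM in DMSO acetate, and 4151 to 13431 CPM against 3043 to 4550 CPM with inhibitor. Much of it was Gfap, at 2337 to 9772 CPM in DMSO vehicle and 1849 to 2434 CPM in DMSO acetate. With inhibitor Gfap stood at 2160 to 10755 CPM with vehicle and 1704 to 2775 CPM with acetate. Gjb6 was at 0 in DMSO vehicle 1, DMSO acetate 4 and inhibitor acetate 2.

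Of 12 tested oligodendrocyte markers of 14 listed, 10 fell without and 6 with inhibitor, with Gpr17, a receptor of oligodendrocyte precursors, at -6.89 and -5.29. Their summed level was 309 to 882 CPM in DMSO vehicle and 707 to 991 CPM in DMSO acetate, and 253 to 1095 CPM against 439 to 1101 CPM with inhibitor. Much of it was Olig1, a lineage transcription factor, which stood at 695, 72.7, 71.4 and 66.2 CPM in DMSO vehicle libraries 1 to 4 and at 535 to 839 CPM in DMSO acetate libraries. It stood at 54.9, 932 and 82.8 CPM in inhibitor vehicle libraries 1 to 3 and at 306 to 939 CPM in inhibitor acetate libraries. Olig1 was high in both vehicle libraries that stood apart, and its folds of 1.60 and 0.80 did not pass (adjusted p = 0.139 and 0.535 by edgeR). Mog, Mobp, Mag or Enpp6 was at 0 in 12 libraries. Of 10 tested meningeal markers of 12 listed, 9 fell without and 8 with inhibitor. Their sum was 178 to 943 CPM against 62.3 to 84.4 CPM without, and 62.4 to 806 CPM against 58.2 to 83.0 CPM with inhibitor, with Slc22a6 at 0 in 9 libraries. Of 9 tested vessel markers of 12 listed, 6 fell and 1, the pericyte gene Rgs5, rose by 0.58 in this scaling without inhibitor (adjusted p = 0.043 by edgeR), and 5 fell with it. Their sum was 183.5 to 457 CPM against 48.8 to 66.8 CPM, and 58.7 to 315 CPM against 39.3 to 56.0 CPM. Cldn5, a tight junction protein of endothelium, was at 0 in 9 libraries. Of 4 choroid plexus and ependymal markers 3 fell in each comparison, and the 4 hemoglobin genes of the blood list were at 0 in every library. Neuronal markers went the other way in this scaling: 12 of 14 rose without inhibitor, with a median of 0.67, and 11 with it, with a median of 0.50, and Rbfox3, the NeuN antigen, rose by 0.82 and 0.53. The neuronal sum was 5484 to 8481 CPM against 10756 to 12500 CPM without, and 6210 to 8474 CPM against 9955 to 10921 CPM with inhibitor.

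When the non-neuronal score entered the model as a covariate, 3 of 10 genes fell with acetate in DMSO cultures (5.81% of all tested genes fell) and 4 of 10 in inhibitor cultures (6.52%). Those that fell without inhibitor were Gclc, with a log2 fold of -0.90 (adjusted p = 0.00286), Hmox1 with -0.57 (adjusted p = 0.0292) and Txnrd1 with -0.50 (adjusted p = 0.0267 by edgeR). Those that fell with inhibitor were Osgin1 with -1.28 (adjusted p = 0.0104), Hmox1 with -0.98 (adjusted p = 0.000225), Srxn1 with -0.53 (adjusted p = 0.0151) and Prdx1 with -0.46 (adjusted p = 0.00793 by edgeR). Nqo1 and Slc7a11 turned positive without inhibitor, at 0.42 and 0.25, and did not pass (adjusted p = 0.411 and 0.643 by edgeR). The score itself differed between vehicle and acetate libraries, so this fit leans on the 2 vehicle libraries that stood apart. What part the make-up of the cultures has in the folds of the 10 genes was not tested beyond these values. Scaled on neuronal markers instead, the median of all genes moved to -0.92 without and -0.64 with inhibitor, and 87.1% and 69.7% of all tested genes fell. On that scale 10 of 10 genes fell in both comparisons, with medians of -2.05 and -1.70, and 0 genes of the other 5 lists below rose in either, so every rise named in them is relative to the main scaling.

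The genes that control Nrf2 were read next, from a list of 12. Nfe2l2, which encodes Nrf2, stood at 34.2, 37.3, 24.1 and 28.6 CPM in DMSO vehicle and at 13.3, 11.5, 15.6 and 20.2 CPM in DMSO acetate libraries 1 to 4. The groups did not overlap, and Nfe2l2 fell by 1.04 (SE 0.20, BH-adjusted p = 0.000632 by edgeR). In DMSO vehicle 1 it was as high as in the other vehicle libraries. With inhibitor it stood at 22.7, 20.9 and 29.2 CPM with vehicle and at 17.2, 13.5, 20.5 and 12.4 CPM with acetate, and fell by 0.61 (SE 0.21, BH-adjusted p = 0.0356 by edgeR). Keap1, its inhibitor, did not pass in either comparison, with folds of -0.01 (95% interval -0.15 to 0.13) and 0.04 (interval -0.11 to 0.19) and levels of 94.3 ± 5.23 and 93.5 ± 6.96 CPM (SD, n = 4 each) in DMSO cultures.

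Of the small Maf partners, Maff fell by 1.86 and 2.27 and Mafk by 0.66 and 0.92 without and with inhibitor (adjusted p = 0.000989, 0.00156, 0.00253 and 0.00137 by edgeR). Bach1, the repressor of the same elements, fell by 0.44 (adjusted p = 0.00535) without inhibitor and had a fold of -0.20 (adjusted p = 0.236 by edgeR) with it. In the whole list 1 gene rose and 4 fell without inhibitor, and 2 rose and 4 fell with it. The medians were -0.04 and -0.16. Of all tested genes 27.5% fell and 23.7% rose without inhibitor, and 20.6% fell and 14.5% rose with it. These shares apply to the lists that follow as well. With that score as a covariate 0 fell without and 1 with inhibitor.

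Other genes generally listed as Nrf2 targets numbered 20, of which 18 were tested. Without inhibitor 10 fell and 2 rose (median -0.67; 18 fell and 0 rose when scaled on neuronal markers), and with inhibitor 13 fell and 0 rose (median -0.73). Ephx1, the microsomal epoxide hydrolase, fell by 0.62 and 0.84 (adjusted p = 6.95e-05 and 6.26e-05 by edgeR). Aox1, an aldehyde oxidase, fell by 1.63 and 1.59, from 27.7 ± 5.15 to 8.98 ± 1.83 CPM (SD, n = 4 each) in DMSO cultures. Abcc1, an exporter of glutathione conjugates, fell by 0.74 and 0.41. Gstp1, a glutathione transferase, rose by 0.59 without inhibitor (adjusted p = 0.000476 by edgeR), from 84.8 ± 3.95 to 128 ± 21.8 CPM, and had a fold of 0.11 (adjusted p = 0.493 by edgeR) with it. With the score as a covariate 2 and 4 of the list fell, and the medians were 0.14 and -0.17.

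Hmox1 works within heme and iron handling, and genes of that list outside the 10 were read beside it. Of 9 listed, 8 were tested, and 1 rose and 0 fell without inhibitor (median -0.08; 0 rose and 8 fell when scaled on neuronal markers), while 0 rose and 2 fell with it (median -0.14). Hmox2, the constitutive heme oxygenase, rose by 0.50 without inhibitor (adjusted p = 0.000766) and had a fold of 0.21 with it (adjusted p = 0.132 by edgeR). Slc48a1, a heme transporter, and Fech, which inserts iron into heme, had folds of 0.15 and -0.20 without and -0.13 and -0.08 with inhibitor, none of which passed. Ftl1, the ferritin light chain that stores iron and is itself held to be an Nrf2 target, had a fold of -0.39 (adjusted p = 0.103) without inhibitor and fell by 0.85 with it (adjusted p = 0.0065 by edgeR). The other gene of the list that fell with inhibitor, named after its values were seen, was Fth1, the ferritin heavy chain. It had a fold of -0.34 (adjusted p = 0.117) without inhibitor and fell by 0.64 with it (adjusted p = 0.0179 by edgeR), from 2973 ± 775 CPM (SD, n = 3) to 1911 ± 67.8 CPM (n = 4).

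Antioxidant enzymes not chosen for control by Nrf2 were mixed, with 7 of 19 higher and 7 lower without inhibitor (median 0.19; 0 higher and 18 lower, median -0.71, when scaled on neuronal markers), and 4 higher and 8 lower with it (median -0.24). Msrb1, a methionine sulfoxide reductase, rose by 0.78 and 0.31 (adjusted p = 1.87e-05 and 0.0199), and Glrx2, a mitochondrial glutaredoxin, by 0.50 and 0.26 (adjusted p = 0.000366 and 0.0448 by edgeR). Prdx5, a peroxiredoxin, rose by 0.56 without inhibitor and had a fold of 0.05 with it (adjusted p = 0.000489 and 0.738 by edgeR). Sod3, the extracellular superoxide dismutase, fell by 2.05 and 1.79 (adjusted p = 0.000252 and 0.00242 by edgeR).

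Slc7a11 is also a target of Atf4, the transcription factor of the amino acid response, so genes of that response were read beside it. Of 16 genes 5 fell and 1 rose without inhibitor (median -0.14), where 27.5% of all tested genes fell and 23.7% rose. With it 8 fell and 1 rose (median -0.35), where 20.6% of all tested genes fell and 14.5% rose. Trib3, a pseudokinase induced by Atf4, fell by 1.52 and 1.91, and Nupr1, a stress protein, by 3.31 and 2.99. Cth, which makes cysteine from cystathionine, fell by 1.28 without inhibitor (adjusted p = 0.000232) and had a fold of -0.28 with it (adjusted p = 0.35 by edgeR). Ddit4, a stress-induced regulator of mTOR, rose by 0.30 and 0.48, though 0 genes of the list rose when scaled on neuronal markers.

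**Figure D4:**
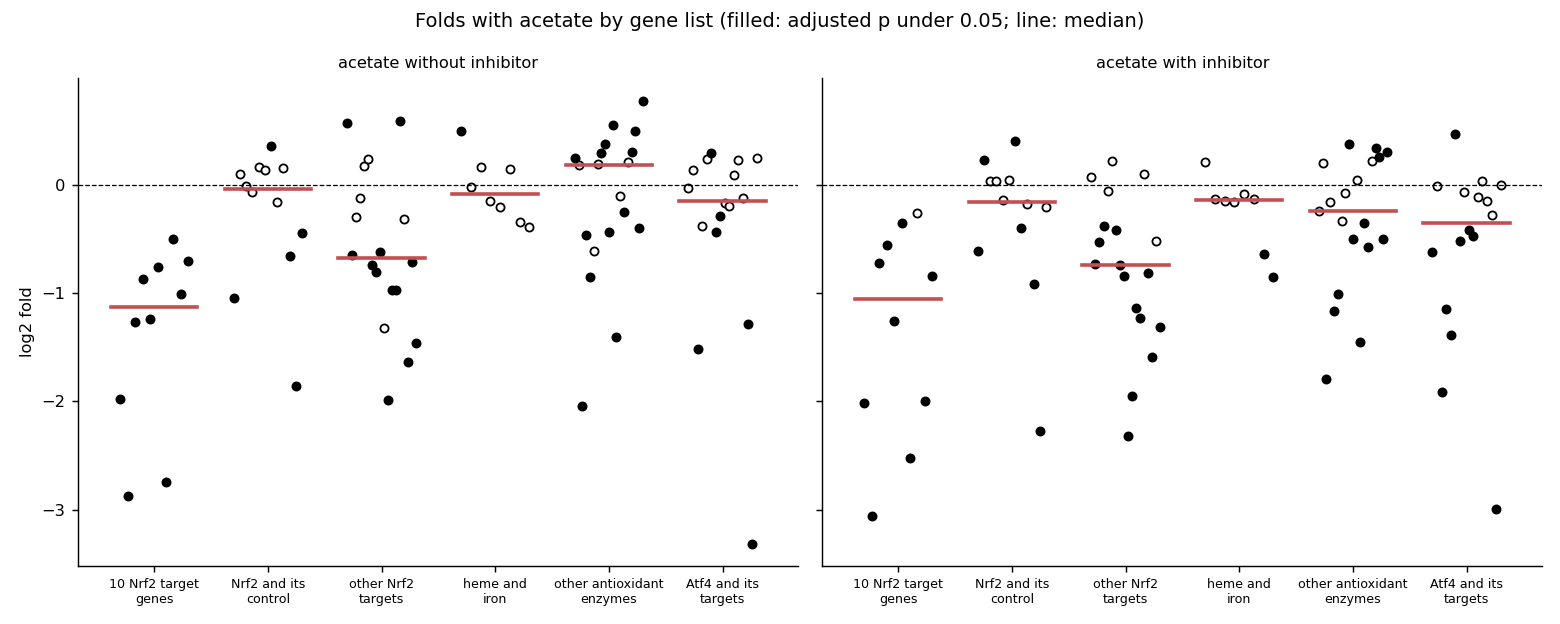
Log2 fold with acetate (vertical axis) of each tested gene of 6 gene lists (horizontal axis), without inhibitor (left) and with it (right); filled points passed an adjusted p of 0.05 by edgeR, and lines give list medians. The 10 Nrf2 target genes lie lowest by median, at -1.12 and -1.05, with the other Nrf2 targets at -0.67 and -0.73 and the remaining lists between -0.35 and 0.19.

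Likeness of profiles over the 15 libraries was measured as the root mean square difference of log2 CPM profiles centred on each gene's own mean, with no test. Txnrd1 and Gsr were the closest pair (0.15), followed by Gclm with Txnrd1 (0.17), Gclm with Prdx1 (0.20) and Gclc with Gclm (0.21), while Nqo1 was closest to Slc7a11 (0.31). Among 11530 other genes, the nearest to Txnrd1 was Errfi1 (0.082), to Gsr Sort1 (0.092), to Srxn1 Tmod1 (0.097), to Gclm Ifngr1 (0.098), to Gclc Ctnnal1 (0.11) and to Prdx1 Tacc1 (0.11). The nearest to Hmox1 was Vamp8 (0.18), to Slc7a11 Neat1 (0.22), to Nqo1 Igf1 (0.25) and to Osgin1 Mt1, a metallothionein (0.28). Flnc and Igf1 were among the 3 nearest to both Nqo1 and Slc7a11.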

How the data were processed

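RNA-seq gene counts of 15 libraries were taken from the table the authors deposited. Per the submitters' processing notes, STAR 2.5.2a, HTSeq 0.6.1p1, DESeq2 and mm10 were used; the annotation, the counting mode and the strandedness of counting were not given in the sources used here, and opposite-strand genes may share reads. Lines naming no gene held 38.9% to 47.4% of counts and were left out. Counts were scaled by TMM (factors 0.885 to 1.126) to CPM, filtered with filterByExpr and tested with edgeR 4.0.16 in R 4.3.3 (quasi-likelihood F test, 1 fit of all 15 libraries, Benjamini-Hochberg over 15075 genes, threshold 0.05); the SE is the fold over the root of F. The biological coefficient of variation was 16.8%. Log2 CPM used a prior count of 2. Scripts were tested on simulated data. Alternatives were other scalings, no filter, DESeq2 1.42.0, a replicate block, a non-neuronal covariate, fewer groups and left-out libraries. No libraries were copies: chi-square per gene was 4.65 to 144 over 21 pairs within groups. Members, lists and tests were chosen with earlier results of these data known. The genes named are all 10, Nfe2l2, Keap1 and Bach1, up to 4 per other list with the smallest p for acetate without inhibitor, and the 3 genes nearest in profile (the nearest is printed). Gene coordinates are from GENCODE M21 (GRCm38).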

Additional observations from a re-analysis of the deposited data

Results flagged for a closer look

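Each gene was screened in the 3 groups of 4 libraries, 30 sets in all, for a highest or lowest library far from the others relative to the group's range; chance flags about 1 set in 20. In DMSO vehicle 1, Hmox1 (107 CPM) and Nqo1 (4.03 CPM) stood far below the other DMSO vehicle libraries, at 221 to 243 and 17.9 to 20.6 CPM. That library also had the lowest non-neuronal score of its group, 3.26. Gclm stood high in DMSO acetate 4 (11.7 CPM, others 10.8 to 10.9) and in inhibitor acetate 1 (13.5 CPM, others 10.5 to 10.97). Osgin1 stood low in inhibitor acetate 3 (2.23 CPM, others 3.96 to 4.22).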

How the results depend on the processing

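For each of the 10 genes the fold was recomputed under 24 alternatives (23 for the difference of responses). In acetate without inhibitor 233 of 240 values kept direction and call, and in acetate with inhibitor 221 of 240. With the non-neuronal score as covariate 3 and 4 genes fell in these comparisons; Nqo1 (0.42) and Slc7a11 (0.25) reversed without inhibitor. All-gene counts that fell were then 876 and 983, and 1099 and 766 rose; scaled on neuronal markers 13137 and 10504 fell and 146 and 136 rose. Without both vehicle libraries that stood apart 3434 genes rose with acetate and inhibitor. The 9 falls with inhibitor ranged from 7 to 10 when 1 library was left out.

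For the inhibitor without acetate, the 2 falls became 0 when scaled on neuronal markers, without both libraries that stood apart, or with only the compared groups, and 1 with no filter on low counts. They ranged from 0 to 3 when 1 library was left out: to 0 without DMSO vehicle 2 or 3 or inhibitor vehicle 1 or 2, and to 1 without DMSO vehicle 1, any 1 DMSO acetate library or inhibitor acetate 1, 2 or 3. Rises went from 0 to 1 by DESeq2, 2 without both libraries that stood apart and 5 with the covariate. Of all tested genes 6.44%, 2.73% and 7.97% rose in these settings. For the inhibitor with acetate, 1 gene fell and 1 rose without both libraries that stood apart (10.9% and 6.95% of all tested genes). The same counts came with only the compared groups (10.6% and 8.58%), and 1 fell with the covariate (9.16%). For the difference of responses, 1 was lower with the covariate (3.49% of all tested genes) and 2 were higher without inhibitor vehicle 3 (1.72%). The cause of these changes was not tested.

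Other folds reversed as well. For the inhibitor without acetate these were Srxn1 with upper-quartile factors (-0.0047) and scaled on neuronal markers (-0.11), Slc7a11 without both libraries that stood apart (0.14), and with the covariate Nqo1 (0.54), Slc7a11 (0.68) and Prdx1 (0.026). For the inhibitor with acetate Srxn1 turned positive with RLE factors (0.0027), upper-quartile factors (0.021), neuronal scaling (0.14), DESeq2 (0.0028), only the compared groups (0.012) and the covariate (0.046), and Osgin1 with neuronal scaling (0.057). The difference of responses reversed for Hmox1 (0.0033) and Srxn1 (0.026) with upper-quartile factors, for Hmox1 (0.23), Nqo1 (0.090), Srxn1 (0.25) and Prdx1 (0.14) with neuronal scaling, and for Slc7a11 (-0.36) with the covariate. Leaving out 1 library, the ranges of folds that reversed were, for the inhibitor without acetate, -0.043 to 0.57 (Hmox1), -0.67 to 0.29 (Nqo1), -0.18 to 0.27 (Srxn1) and -0.37 to 0.45 (Slc7a11). For the inhibitor with acetate they were -0.035 to 0.094 (Gclm), -0.044 to 0.045 (Srxn1), -0.017 to 0.071 (Txnrd1) and -0.17 to 0.097 (Osgin1). For the difference they were -0.36 to 0.26 (Hmox1), -0.69 to 0.29 (Nqo1), -0.27 to 0.19 (Srxn1) and -0.27 to 0.56 (Slc7a11).

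Over all genes, the inhibitor without acetate lowered 300 and raised 523; neuronal scaling gave 18 and 9, DESeq2 700 and 971, only the compared groups 0 and 0, and the covariate 1045 and 1201. With acetate it lowered 515 and raised 356; the same settings gave 8 and 50, 880 and 591, 1487 and 1201, and 1381 and 855, and leaving out both libraries that stood apart gave 1637 and 1050. The difference was called in 1 gene lower and 2 higher, against 752 and 266 by DESeq2, 417 and 237 without both libraries and 526 and 240 with the covariate.

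Pairing by replicate number was not evident: over 21 same-number pairs the correlation of deviations from group means ran from -0.71 to 0.43 (median -0.12). Of these 6 were over 0.1, and 3 of 15 libraries correlated best with their own number. This check cannot exclude pairing, since the labels do not say what the numbers mark. The libraries that stood apart also weigh on it (r = 0.76 between DMSO vehicle 1 and inhibitor vehicle 2). With the replicate block 10 genes fell with acetate without inhibitor (25.8% of all tested genes) and 8 with it (17.4%). In the inhibitor comparison without acetate 1 fell (1.35% of all tested genes), and over all genes 321 rose. In the inhibitor comparison with acetate 282 of all genes fell and 234 rose. Depth limits Nqo1 with acetate most, at 1.33 to 2.47 CPM with 1 count worth 0.028 to 0.054 CPM.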
